A study of Gossypium hirsutum with 6 samples.

Results

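In developing fiber of upland cotton (*G. hirsutum* cv. TM1), 71 of 11858 array probes (0.599%, with an exact 95% binomial interval of 0.468 to 0.755%) averaged close to their 5 dpa level over 8, 10 and 14 dpa and exceeded it by 2-fold or more at 17, 21 and 24 dpa. A probe was taken into this set when its log2 ratio to 5 dpa was at least 1 at each of 17, 21 and 24 dpa and the mean of its ratios at 8, 10 and 14 dpa lay between -1 and 0.5. The probes are oligonucleotides designed on cotton fiber ESTs, and those with a value at all 6 stages were considered. Intervals on shares here are exact binomial ones and hold counting error alone. These ratios chose the members, so every profile value given here describes them and none was tested.

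The fiber is a single cell that grows out from the seed coat. While it elongates it makes a thin primary cell wall (PCW) that can still extend. In the transition that follows, elongation slows and the cell turns to the secondary cell wall (SCW), which is almost pure cellulose and gives the mature fiber its strength. The paper describes these stages as overlapping, with elongation lasting up to 21 dpa and SCW synthesis starting at 14 dpa. It places the transition broadly between 17 and 24 dpa, with small differences in timing between genotypes. The sample labels give days and no stage, so 17 dpa is a limit of the rule and not a boundary of development.

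TM1 plants were grown in a greenhouse, and total RNA of fibers at each stage was compared on 2-colour arrays, with 5 dpa fibers as the common baseline. Each stage has 1 profile, a log2 ratio to 5 dpa fitted over the arrays of a double loop with dye swaps, in which 1 is a 2-fold higher transcript level. The RNA is bulk, so that fewer cells of a type and less RNA per cell cannot be told apart. There are no replicate profiles, so no spread between replicates can be given, and the number of arrays limits the precision. All 6 profiles share the 5 dpa baseline, and neighbouring stages share arrays of the loop. For 17 probe numbers that were deposited with a pair of entries, none of them a member, the entries differed by a median of 0.42 at 17 dpa and 0.40 at 21 dpa on the log2 scale. At 24 dpa they differed by a median of 0.62. The SD of these differences was 0.88 for 17 dpa and 1.56 for 24 dpa, and they reached 2-fold in 3 and 6 of the 17 pairs. Defining transcripts of other tissues could be looked for only through 4 chlorophyll a/b-binding leaf controls, whose 17 dpa ratios lay between -1.15 and 0.40.

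At 8, 10 and 14 dpa the members had medians of -0.07, 0.39 and 0.34, and at 17, 21 and 24 dpa of 1.51, 1.68 and 2.03. The median over all 11858 probes was within 0.01 of 0 at every stage. Of all probes, 5.89% exceeded 5 dpa by 2-fold at 17 dpa, 5.95% did so at 21 dpa and 11.2% at 24 dpa, shares that the rule sets to 100% for the members. The members ranged from 1.02 to 3.51 at 17 dpa, from 1.00 to 4.07 at 21 dpa and from 1.03 to 4.86 at 24 dpa. At 17 dpa 21 members were at least 4-fold higher (1.34% of all probes) and 4 at least 8-fold (0.422%). At 24 dpa these counts were 38 (3.69% of all probes) and 13 (1.35%). At all 3 late stages 10 members were at least 4-fold higher (0.565% of all probes) and 2 at least 8-fold higher (0.202%), a GTP-binding protein and a protein of unknown function that are described in detail further on.

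**Figure D1:**
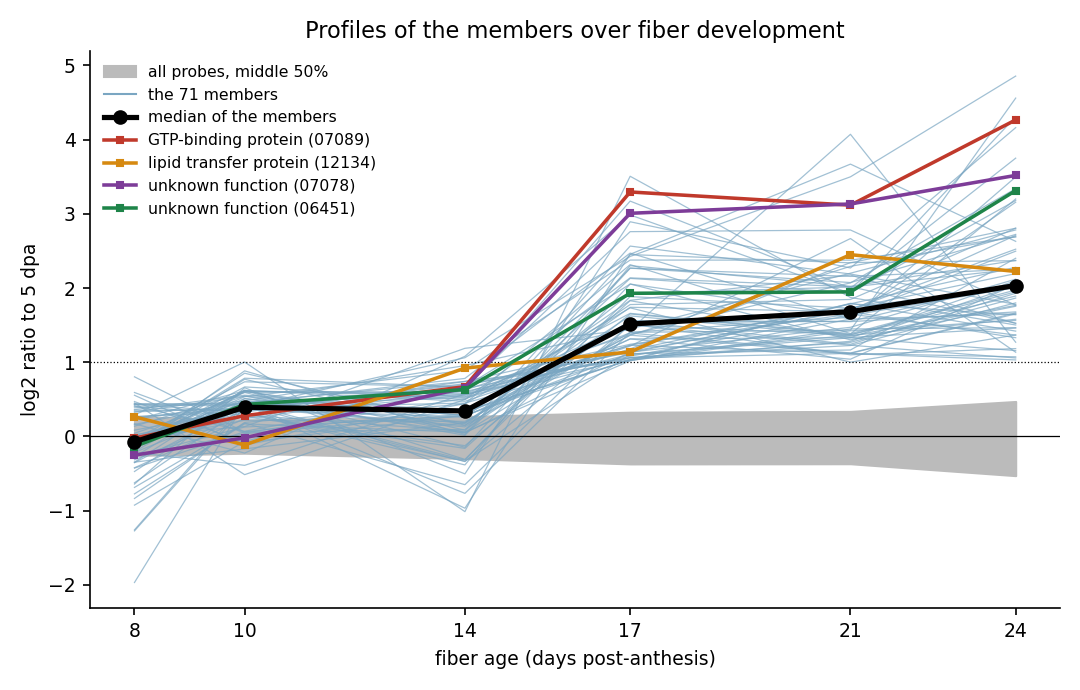
Log2 ratio to 5 dpa (vertical axis) against fiber age in days post-anthesis for the 71 members (thin lines), their median (black) and the 4 members with a description (coloured), with the middle 50% of all probes in grey and a dotted line at a 2-fold difference. The members' median goes from 0.34 at 14 dpa to 1.51 at 17 dpa and stays above 1.5 afterwards.

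Many probes lay close to the limits of the rule. The highest early means among the members were 0.475, 0.468 and 0.457, and the lowest among the excluded probes were 0.508, 0.512 and 0.518, with 20 probes between 0.5 and 0.6. The lowest late values among the members were 1.00, 1.02 and 1.02, against 0.997, 0.993 and 0.983 in the excluded probes closest to the limit, and 21 probes within the early limits had a lowest late value between 0.9 and 1. Just outside lay a Set 1 probe of unknown function, GA_10dpa_fiberEST_00017, with an early mean of 0.51 and ratios of 1.76, 1.99 and 2.80 at 17, 21 and 24 dpa. Set 1 is the study's list of described probes and was selected on these samples. It holds genes regulated during fiber development in both TM1 and Pima cotton (*G. barbadense*) that were among the most distant between them at 17 and 24 dpa. A cytochrome c oxidase subunit II probe, a mitochondrial respiratory chain component, had ratios of 3.35, 3.43 and 4.23 at these stages and an early mean of 0.70, above the limit because it was already at 1.42 at 14 dpa. Both were picked here after their values had been seen.

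Before 17 dpa the members were not uniform. At 8 dpa 30 of 71 lay above their 5 dpa level (50.4% of all probes did), with a range from -1.97 to 0.80, and 0 were at least 2-fold higher (3.16% of all probes) and 3 at least 2-fold lower (2.76%). At 10 dpa 62 lay above it (50.5% of all probes), between -0.52 and 1.00, with 1 past 2-fold upwards (2.82%) and 0 downwards (2.05%). At 14 dpa 58 did (50.2%), between -1.01 and 1.19, with 3 past 2-fold upwards (3.78%) and 1 downwards (4.24%). The lowest of these 3 early values fell at 8 dpa in 45 members, at 10 dpa in 11 and at 14 dpa in 15. All 3 lay within 0.5 of 0 in 17 members. At 14 dpa 29 members were already at 0.5 or more and 13 were below 0, where the middle 50% of all probes lay between -0.30 and 0.27. Shares of all probes were not computed for the stage of the lowest value or for all 3 within 0.5 of 0. The 10 dpa ratio exceeded the 8 dpa ratio in 58 members (48.2% of all probes). The limits of the rule on the early mean, which reach further below 0 than above it, bound these counts.

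The step from 14 to 17 dpa had a median of 1.35 over the members, from 0.22 to 4.52, against -0.01 over all probes. It was at least 2-fold in 45 members (63.4%, interval 51.1 to 74.5%), where 2.41% of all probes passed, and smaller than that in the other 26. A 2-fold lower value at 17 than at 14 dpa was seen in 0 members (2.16% of all probes). The rule used both sides of this step, although it did not ask for a step of this size. The smallest step, 0.22, belonged to the lipid transfer protein described further on, which had reached 0.92 by 14 dpa.

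After 17 dpa the median of the members changed little up to 21 dpa and was higher at 24 dpa. The change from 17 to 21 dpa had a median of 0.02, and 6 members went up by 2-fold or more (3.38% of all probes) while 3 went down by as much (3.15%). From 21 to 24 dpa the median change was 0.45. In that interval 15 members were at least 2-fold higher at the later stage (7.76% of all probes) and 4 at least 2-fold lower (5.68%). Over the whole interval from 17 to 24 dpa 21 members were at least 2-fold higher (9.22% of all probes) and 1 at least 2-fold lower (7.61%). Lower by any amount were 17 members. The share of all probes lower by any amount was not computed, and their median change was -0.04. The highest of the 3 late values was at 24 dpa in 47 members (66.2%, interval 54.0 to 77.0%), where 37.3% of all probes had theirs. It was at 17 dpa in 13 members (35.7% of all probes) and at 21 dpa in 11 (the rest of all probes). By order of the 3 values, 27 members increased at both steps, 27 had their lowest value at 21 dpa, 11 had their highest there and 6 decreased at both steps. The shares of all probes with these orders were not computed, so the counts are not set against the array as a whole. The 3 late values of a member spanned a median of 0.76, and less than 1 in 42 members (78.7% of all probes). Given the differences between paired entries of one probe number, the order of the late values is not resolved in single members.

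Probes within the same early limits and a 2-fold higher ratio at 17 dpa numbered 240. Of these, 71 (29.6%, interval 23.9 to 35.8%) were the members, still at least 2-fold higher at 21 and 24 dpa. A further 93 were so at 17 dpa only, with a median that went from 1.20 at 17 dpa to -0.04 at 24 dpa. Another 27 were higher at 17 and 21 dpa and 49 at 17 and 24 dpa but not 21 dpa. Viewed from the late stages, 302 probes were at least 2-fold higher at 17, 21 and 24 dpa. The members made up 23.5% of them, and the other 231 had an early mean of 0.5 or more, with medians of 0.84 at 8 dpa and 1.43 at 14 dpa.

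A description was at hand for 4 members, each of them in Set 1, a list chosen on these samples and so no independent evidence of their direction. They are a GTP-binding protein (GA_10dpa_fiberEST_07089), a lipid transfer protein (GA_10dpa_fiberEST_12134) and proteins of unknown function (GA_10dpa_fiberEST_07078 and GA_10dpa_fiberEST_06451). GTP-binding proteins act as switches in signalling and vesicle traffic, and lipid transfer proteins are small, usually secreted proteins that carry lipids and are abundant in plant epidermal cells. The other 67 members carry no name here.

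The GTP-binding protein had log2 ratios of -0.02, 0.28 and 0.67 at 8, 10 and 14 dpa, followed by 3.29, 3.12 and 4.27 at 17, 21 and 24 dpa. The 3 late values lay above every early value by more than 2 on the log2 scale, and the step from 14 to 17 dpa was 2.62. Its 17 dpa ratio ranked second among the 71 members, below the highest at 3.51 and above the third at 3.17. In the scanned images deposited with the 17 dpa sample its signal was 21.3 and 10.8 times the image median. It was 2.80 and 1.24 times in those deposited with the 14 dpa sample. In the 10 dpa images the signal was 5.12 and 9.53 times, so the higher of these came close to the lower 17 dpa one. It exceeded the buffer spots in all 12 images. A second probe described as a GTP-binding protein, GA_10dpa_fiberEST_11797, was not a member, with ratios of -0.56, -0.62 and -0.88 at 17, 21 and 24 dpa.

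The small GTPase and calcium signalling list, in which the GTP-binding protein falls, held 8 described probes. Past 2-fold, 4 of them were higher and 0 lower at 17 dpa, 4 higher and 1 lower at 21 dpa, and 3 higher and 2 lower at 24 dpa. The list's median was 0.87 at 17 dpa and 0.75 at 24 dpa, against 0.00 and -0.01 over all probes. The 3 probes higher at 17 dpa besides the GTP-binding protein were already at least 2-fold higher at 14 dpa. Rab11C, a small GTPase of membrane traffic, was present as GA_10dpa_fiberEST_03038, at 1.15 at 14 dpa and 1.19 at 17 dpa, and as GA_10dpa_fiberEST_11669, at 1.62 and 1.76. A Ran-specific GTPase-activating protein, a regulator of nuclear transport, was at 1.19 and 1.22. A calcium-dependent protein kinase, GA_10dpa_fiberEST_00016, was at -0.71 at 17 dpa and -1.64 at 24 dpa, the opposite direction.

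The lipid transfer protein had a different shape, with ratios of 0.26, -0.12 and 0.92 at 8, 10 and 14 dpa and of 1.14, 2.45 and 2.22 at the late stages. Its largest steps were from 10 to 14 dpa and from 17 to 21 dpa, and its 17 dpa value stood close to the 14 dpa value. Its signal was 11.18 times the image median in the 14 dpa image and 12.99 times in the 17 dpa image of the slide that holds both, and above the buffer in all 12 images. The list of lipid transfer and very-long-chain lipid genes held 5 described probes, of which 2 were past 2-fold upwards at 17 dpa and 0 downwards, and at 24 dpa 1 was upwards and 2 downwards. A long chain fatty acid elongation enzyme on that list was at 2.55 at 14 dpa, 2.54 at 17 dpa and 0.37 at 24 dpa, and an omega-3 fatty acid desaturase of the endoplasmic reticulum was at -0.01 and then -3.47 at 17 and 24 dpa.

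The unknown protein 07078 had ratios of -0.25, -0.02 and 0.66 at 8, 10 and 14 dpa, and 3.01, 3.13 and 3.52 at 17, 21 and 24 dpa. It was a weak probe, above the buffer in 8 of 12 images. In the 14 dpa image of the shared slide its signal was 0.112 times the image median, and in the other 14 dpa image 0.494 times. The signal was 0.691 and 1.12 times in the 10 dpa images and 1.65 and 2.54 times in the 17 dpa images. The unknown protein 06451 had -0.14, 0.43 and 0.63, and then 1.93, 1.95 and 3.31. Its 24 dpa value was the highest, and its signal exceeded the buffer in 11 images while lying between 0.221 and 3.30 times the image median. The 3.30 is from the Cy3 image of 24 dpa, whose median was itself not above the buffer.

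No other list contributed a member. Cellulose synthesis, the main activity of the SCW stage, was represented by 2 described probes, with 0 of 2 at least 2-fold higher at 17, 21 or 24 dpa, and by control features. The cellulose synthase control GhCesA-1 had ratios of -1.93, 3.81 and 7.30 at 17, 21 and 24 dpa, but it was at 2.98 at 8 dpa and above the buffer in 3 of 12 images. GhCesA-2, above the buffer in all 12, had 0.54, 0.36 and 1.71. The control FbL2A was already at 1.42 at 14 dpa, followed by 1.19, 4.88 and 7.83. At 17 dpa FbL2A alone of these 3 controls was at least 2-fold above 5 dpa. Of 124 described probes with values, 37 were at least 2-fold higher at all 3 late stages and 4 of these were members. Of all 11858 probes these counts were 302 and 71. Set 1 was selected partly on the 17 and 24 dpa values, so its counts are no result about the members. The lists of photosynthesis, seed storage and embryo, and cell division transcripts had 0 described probes.

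Among the members without a description, the brightest were GA_10dpa_fiberEST_05386 and GA_10dpa_fiberEST_12339. The former had ratios of -0.18, 0.77, 0.08, 2.57, 2.19 and 1.78 from 8 to 24 dpa. Its spots were at the ceiling of the scanner in an image or images of each late stage, so the order of its late values cannot be read. The latter had 0.44, 0.43, -0.97, 2.46, 3.67 and 2.63, with its lowest value at 14 dpa and a step to 17 dpa of 3.42. In the 17 dpa image of the shared slide their signals were 110 times the image median, at the ceiling of the scanner. In the 14 dpa image of that slide they were 9.08 and 4.53 times, but in the other 14 dpa image 34.5 and 81.7 times. In the 10 dpa images they were 170 and 318 times for the former and 140 and 394 times for the latter. Both probes were thus bright before 17 dpa as well. Their spots were saturated in the 17 dpa image of the shared slide, so that its signals are lower bounds. The spots of the latter were also saturated in an image of 21 dpa, and 1 of them in the Cy5 image of 10 dpa. Its signal was at the ceiling in the other 17 dpa image too, and it had no unflagged spot in the 24 dpa images. The order of its late values cannot be read either.

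The scanned images give part of the signal behind these ratios. Images are named here by the sample they were deposited with, since the labels do not say which RNA each dye held, and a probe counts as above the buffer when its background-subtracted signal is over the median of the buffer spots by more than 3 scaled median absolute deviations. Of the 71 members, 31 were above the buffer in all 12 images (35.4% of all probes were), 50 in at least 6 images (82.5%) and 7 in 0 images (2.68%). The share in at least 6 images was 70.4% (interval 58.4 to 80.7%). The paper used another limit and excluded spots under the mean of the buffer spots plus 3 SD, which is stricter in each of these images. That limit was passed in at least 6 images by 15 members (21.1%) and by 7.07% of all probes. By median rank of signal the 31 lay between the 47.2 and the 99.9 percentile of all probes. The 31 above the buffer in all images had medians of 0.27, 1.74, 1.71 and 2.01 at 14, 17, 21 and 24 dpa. The 7 at buffer level had 0.69, 1.37, 1.93 and 2.71, and their late values spanned a median of 1.92, against 0.65 in the 31. What part weak signal had in the profiles of these 7 was not tested.

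The members' median signal relative to the image median was 1.11 and 1.05 in the 8 dpa images, 0.764 and 0.810 in the 10 dpa images, and 0.881 and 1.14 in the 14 dpa images. It was 2.96 and 1.47 in the 17 dpa images, which come from different slides and dyes. On the 21 dpa slide it was 0.607 in one image and 2.05 in the other, and on the 24 dpa slide 2.85 and 0.523. The higher image was Cy5 at 21 dpa and Cy3 at 24 dpa. In that Cy3 image the median signal of all probes, 34.4, lay below the buffer limit of 37.4, so the 2.85 divides by a weak signal. Of the 39 saturated probe spots in the Cy5 image of 17 dpa, 12 belonged to 6 members. In the Cy3 image of 17 dpa 12 of 25 did, again from 6 members.

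**Figure D2:**
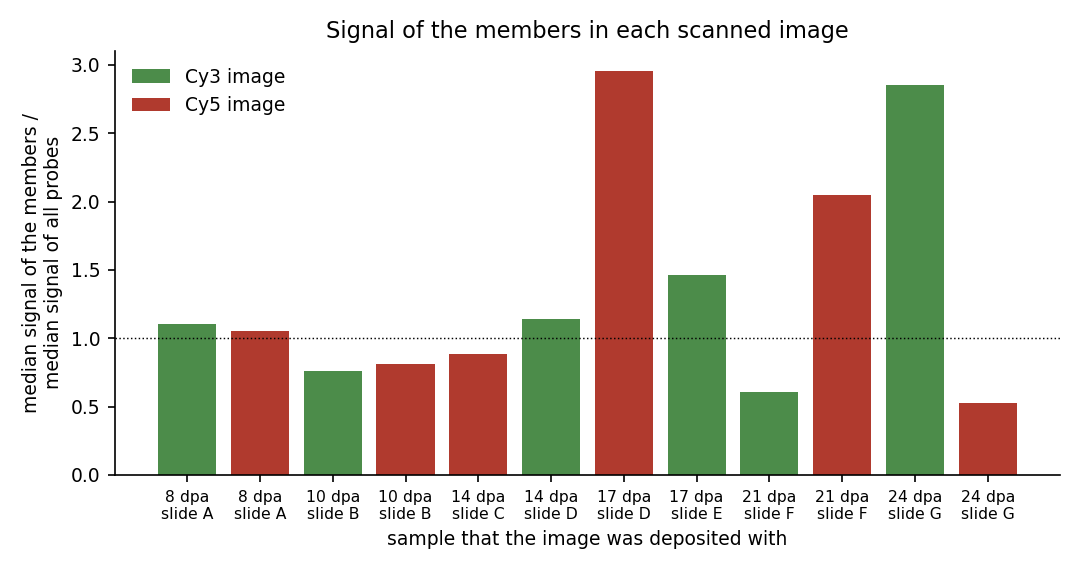
Median background-subtracted signal of the members divided by that of all probes (vertical axis) in each of the 12 images, ordered by the sample they were deposited with, green for Cy3 and red for Cy5, with letters marking the slides and a dotted line at 1. Both 17 dpa images and 1 image each of the 21 and 24 dpa slides lie above 1.4, and the 8, 10 and 14 dpa images lie between 0.76 and 1.15.

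One slide carries an image deposited with 17 dpa (Cy5) and an image deposited with 14 dpa (Cy3), so that they can be compared spot by spot. Which RNA each image holds is not stated for this slide either, so its direction rests on the deposit alone. As the profiles were fitted over the arrays of the loop, the slide is no separate support for them. A log2 ratio of the 17 over the 14 dpa image, centred on the median of all probes, could be computed for 56 members. Of the other 15, 12 had a flagged spot and 3 had none, and all lacked an unflagged spot with signal above the local background in both images. The ratio was above 0 in 53 of 56 members (94.6%, interval 85.1 to 98.9%, against 50.0% of all probes), with a median of 1.84 and a range from -0.54 to 6.16. The median was 1.08 with normexp background correction and 1.18 without background subtraction. The ratio was at least 1 in 36 members (2.63% of all probes), at least 2 in 27 (1.10%) and at least 4 in 11 (0.242%). In 19 of the 56 members the signal of the 14 dpa image was not above the buffer, among them 3 of the 11, so that their ratios divide by a signal near the background and are not exact. The pooled SD between the spots of a member was 0.40 over 54 members with both spots used and holds technical error of single probes only.

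Of the 37 whose profiles differed by at least 1 between 14 and 17 dpa, 31 had a slide ratio of at least 1, and their median slide ratio was 3.24. Of the 19 with a smaller profile step, 5 had one, and their median was 0.48. The GTP-binding protein had spot ratios of 4.04 and 4.17 and the lipid transfer protein 0.22 and 0.21, with both images above the buffer. The unknown proteins 06451 and 07078 were not above the buffer in the 14 dpa image, so no exact ratio is given for them. The slide ratio was larger than the profile step in 40 of 56 members, with medians of 1.84 and 1.36.

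On the same slide, the probes that were higher at 17 dpa only had a median ratio of 0.35 over 68 with a ratio, and 32.4% of them reached 1. Those higher at 17 and 21 dpa only had 0.75 over 18, with 38.9% at 1 or more, and those higher at 17 and 24 dpa only had 0.90 over 23, with 47.8%. Those that had been raised before 17 dpa had 0.17 over 187, with 28 at 1 or more. Those that passed 2-fold at 21 and 24 dpa but not at 17 dpa had 0.14 over 79. These sets were also chosen on the profiles, so their order is a description.

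The other 4 slides with both images were deposited with a single sample each, and the labels do not settle which dye held 5 dpa or another stage, so that only sizes and sides are given. On the 21 dpa slide 62 of 67 members with a ratio lay on one side (50.0% of all probes did). Their median size was 1.99, and 56 were at least 2-fold apart towards that side (6.70% of all probes). On the 24 dpa slide 61 of 62 lay on one side (50.0% of all probes did). The members' median size there was 2.40, and 55 were at least 2-fold apart towards that side (15.9% of all probes). Since the median signal of its Cy3 image was not above the buffer, the centring of this slide rests in part on weak signals. Among probes above the buffer in both of its images, all 45 members were at least 2-fold apart towards that side. Of all such probes 21.3% were, and 71.6% lay on that side. On the 8 dpa slide 38 of 66 lay on the larger side (50.0% of all probes did) and the median size was 0.07. There 2 members were at least 2-fold apart towards that side (2.47% of all probes) and 5 towards the other. On the 10 dpa slide 42 of 70 lay on the larger side (50.0% of all probes did) and the median size was 0.11. Of these 70, 4 were at least 2-fold apart towards that side (2.15% of all probes) and 2 towards the other. The pooled SD between the spots of single members, technical error only, was 0.70 on the 21 dpa slide, 0.64 on the 24 dpa slide, 0.61 on the 8 dpa slide and 0.43 on the 10 dpa slide. Among 50 members with a ratio on all 3 slides of the late stages, 42 lay on the larger side in all (20.7% of all probes did) and 31 were at least 2-fold apart in all (0.805%). The larger side of a slide is the side of most members, and the 50.0% of all probes is set by the centring on their median. As the profiles were fitted over the arrays of the loop and chose the members, these slides are no separate support for them either.

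**Figure D3:**
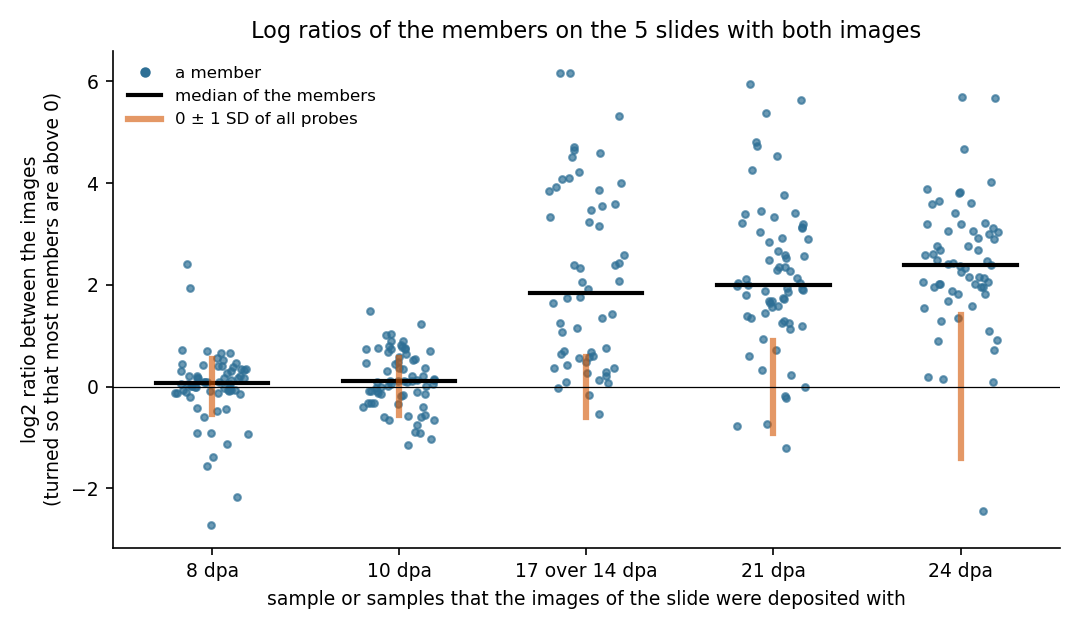
Log2 ratio between the images of a slide (vertical axis) for every member with a ratio on the 5 slides with both images, named by the sample or samples they were deposited with. Black bars are medians of the members, orange bars span 1 SD of all probes to either side of 0, and each slide is turned so that most members lie above 0. The medians are 0.07 and 0.11 on the 8 and 10 dpa slides and 1.84, 1.99 and 2.40 on the others.

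By probe number the members lay between numbers 29 and 12409, and 12 of 71 were within 5 numbers of another member. The count that an even spread would give was not computed. The densest stretch, found after the values had been seen, was 07074 to 07089, in which 5 of 14 measured probes were members, among them the unknown protein 07078 and the GTP-binding protein 07089. Of the 5 measured probes from 07074 to 07078 4 were members, with 17 dpa ratios of 1.53, 2.30, 2.38 and 3.01. The 9 other probes of the stretch ranged from -0.51 to 0.80 at 17 dpa. From 07090 to 07116, 5 of 19 measured probes were at least 2-fold higher at 17 dpa, 1 of them a member. The 5 members of the stretch sit in 4 different subgrids of the slide. Whether their oligonucleotides share sequence was not tested.

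**Figure D4:**
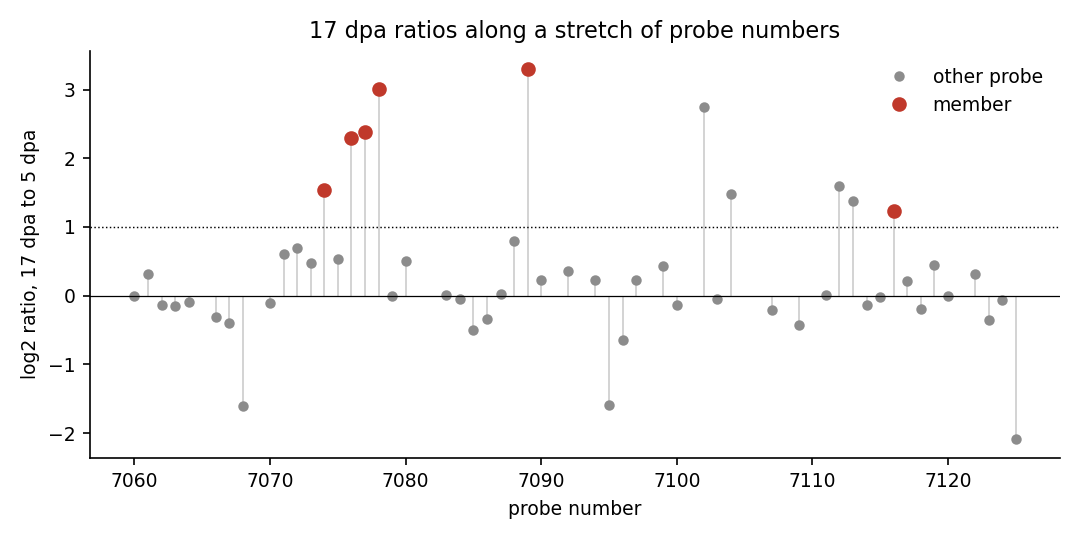
Log2 ratio of 17 to 5 dpa (vertical axis) of each measured probe against its probe number, from 7060 to 7125, with members in red and other probes in grey and a dotted line at a 2-fold difference. The red points at 7074 to 7089 lie between 1.53 and 3.29, with probes near 0 in between.

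On the slide the members occupied 39 of 48 subgrids, with at most 5 in one, and each was printed as 2 spots. Of 123 other probes printed next to a member spot, 10 (8.13%) were at least 2-fold higher at 17 dpa, with a median of 0.00. Of 246 other probes within 2 numbers of a member, 14 (5.69%) were, with a median of -0.01. The share over all probes was 5.89%.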

How the data were processed

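RNA of TM1 fibers was compared on 2-colour oligonucleotide arrays. The authors deposited 1 log2 ratio to 5 dpa per probe and stage, a coefficient of LIMMA's linear models. Before that fit they flagged poor spots by hand, subtracted background, removed spots near the buffer signal and divergent dye swaps, and normalized by lowess. Such filters and the shared fit can damp or drop weak probes. The 12 scanner files, from 7 slides, hold, as deposited, each spot's mean intensity and that of its local background, not normalized. The paper reports more hybridizations per genotype than these 7 slides, so the images cover only a part of the arrays behind the profiles. Probe sequences were not used here.

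The rule was applied to the log2 ratios as deposited, to rows starting GA_ with values at all 6 stages (380 had none). With 1 profile per stage no test was run. Slide ratios used unflagged spots, local background subtracted, spots averaged and centred on the median. The alternatives used normexp (offset 50) and loess in limma 3.58.1 under R 4.3.3. All else was done in Python 3.11.15 (pandas 2.3.3, scipy 1.17.1). The rule and slide ratios were tested on simulated data.

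Names come from the descriptions of Set 1 in the paper's supplement, for 124 probes with values. The cotton RefSeq gene table, which holds no probe names, was not used. Named members were all described ones and the 2 undescribed ones of highest median signal rank. Keyword lists covered cellulose, sucrose and starch, wall loosening, cytoskeleton, water channels, lipids, phenylpropanoids, small GTPases and calcium, transcription factors, ribosomal proteins, proteolysis, redox and iron, photosynthesis, seed storage and cell division. Members, lists and named genes were chosen with earlier results of these data known.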

Additional observations from a re-analysis of the deposited data

How the results depend on the processing

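No paired analysis was possible because each stage has 1 profile and the labels carry no replicate numbers. The set of 71 depends on its limits. It held 276 probes at 1.5-fold, 20 at 3-fold, 238 with the mean of the late stages in place of each, 161 without the condition on 17 dpa, 120 without that on 21 dpa, 98 without that on 24 dpa, and 23 with each early value inside the limits. Requiring signal in every image left 31 above the buffer median plus 3 scaled median absolute deviations and 4 above its mean plus 3 SD. The latter limit, the one the paper used to exclude spots, was passed in at least 6 images by 15 members (21.1%) and by 7.07% of all probes. Centring the profiles kept 70 of the 71. A step of 1.5-fold from 14 to 17 dpa was passed by 83.1% of members and a step of 3-fold by 35.2%. The share brighter in the 17 dpa image was 83.3% without background subtraction and 100% (37 of 37) for members above the buffer in both images. With normexp the median size was 1.07 on the 21 dpa slide and 1.14 on the 24 dpa slide. Of 49 alternatives, 34 stayed within the interval of the share, the spot spread or 1.5 times the count. The median step from 14 to 17 dpa lay between 1.30 and 1.42 over its alternatives, and leaving out the 6 members numbered 07074 to 07116, a choice made after seeing the data, gave the 1.30, as well as 63.1% highest at 24 dpa. Leaving out probes with saturated spots and keeping flagged spots, both also added after seeing the data, moved no slide result past these limits. Weak signal limits the members near the buffer, and saturation the brightest.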
